A study of Homo sapiens with 42 samples.

Results

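CD82, CD55 and CD44 are 3 genes for proteins of the cell surface, taken by gene symbol from the 8738 genes of a table of mRNA levels in pancreatic cancer cells grown with statins. All 3 were found in the table. They were chosen by their measured mRNA response to the statins in this same table, CD82 because its level moved in opposite directions in the 2 cell lines. The differences between statin-treated and untreated cells, and those between doses, are therefore described and not tested.

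The lines were MiaPaCa-2 and PANC-1, which are established human pancreatic cancer cell lines. Each line had 7 groups: 2 µM fluvastatin, lovastatin and simvastatin, the same statins at 20 µM, and a control given no statin. The labels put 3 libraries in each of the 14 groups. All cells were kept in DMEM with fetal bovine serum by the labels. Neither the duration of treatment nor the vehicle of the controls is stated by the sources used here. The labels do not say whether the libraries of a group came from separate cultures, so a p-value here measures how these libraries vary, and that variation may be technical. The columns labelled MiaPaCa-2 control 3 and MiaPaCa-2 lovastatin 20 µM 3 were weighted sums of other columns to within 5.00e-09 on the log2 scale. They were left out, so those groups had n = 2 and the other groups n = 3, with 40 libraries in all. Depth is unknown, since the table holds FPKM (fragments scaled to transcript length and to the mapped total) and no counts. The same values recur in many columns, as after a further scaling to a shared distribution, so the FPKM given here may be values after that step.

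CD82, also called KAI1, is a tetraspanin, a protein with a chain that crosses the membrane 4 times, and it is known as a suppressor of metastasis. CD55, the decay-accelerating factor, is held in the membrane by a GPI anchor and protects cells from complement by speeding the breakdown of the convertases that cleave complement components. CD44 is the main receptor for hyaluronan in the matrix around cells, is linked to the actin skeleton through ezrin and its relatives, and is widely used as a marker of invasive or stem-like carcinoma cells. Statins block HMG-CoA reductase, the enzyme that makes mevalonate, from which cells build cholesterol and the lipid tails that anchor small GTPases in membranes.

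The 250 bases before the annotated start of each gene are shown because the mRNA level of these genes is what was measured and because the 3 promoters differ in composition. They were read from RefSeq on the GRCh38.p14 build, on the plus strand for all 3 genes, and capitals mark the GC box GGGCGG or its reverse CCGCCC. CD82 lies at chr11:44565413-44565662, CD55 at chr1:207321428-207321677 and CD44 at chr11:35138921-35139170.
CD82: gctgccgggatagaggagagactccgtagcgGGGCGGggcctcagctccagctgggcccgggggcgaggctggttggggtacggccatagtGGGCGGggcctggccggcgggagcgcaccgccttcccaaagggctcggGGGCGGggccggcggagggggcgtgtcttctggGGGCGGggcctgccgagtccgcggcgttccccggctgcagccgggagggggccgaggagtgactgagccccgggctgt
CD55: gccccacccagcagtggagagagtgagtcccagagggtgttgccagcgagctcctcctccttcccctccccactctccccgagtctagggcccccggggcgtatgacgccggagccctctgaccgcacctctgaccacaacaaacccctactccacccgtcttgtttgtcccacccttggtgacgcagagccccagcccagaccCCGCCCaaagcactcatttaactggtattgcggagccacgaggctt
CD44: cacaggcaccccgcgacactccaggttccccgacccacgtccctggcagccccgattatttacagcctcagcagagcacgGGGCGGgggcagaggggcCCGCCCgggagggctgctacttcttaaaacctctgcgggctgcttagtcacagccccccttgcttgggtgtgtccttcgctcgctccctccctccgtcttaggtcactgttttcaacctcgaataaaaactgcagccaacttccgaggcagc
The CD82 window was the richest in G and C, at 77.2%, against 64% for CD55, 62.4% for CD44 and a median of 58% over 35116 promoters of the same length. The GC box occurred 4 times in the CD82 window, and 7.63% of all promoters held at least that many. It occurred 1 time in the CD55 window and 2 times in the CD44 window, counts reached by 42.6% and 24.3% of promoters. The letters CACCC or GGGTG, the core of the CACCC element, occurred 4 times before CD55, 2 times before CD44 and 0 times before CD82. At least 1 such match stood in 54.7% of promoters and at least 4 in 2.91%. The AP-1 letters TGANTCA, found in 6.57% of promoters, and the sterol regulatory element, found in 0.0342% and holding a CACCC within it, matched none of the 3 windows. Both strands were searched in each case.

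All 3 genes stood at 1 FPKM or more in all 40 libraries and passed the filter on low values in both lines. CD44 was among the most abundant mRNAs of the table, 134th of 8738 genes in untreated MiaPaCa-2 and 85th in untreated PANC-1. CD82 stood 6237th in untreated MiaPaCa-2 and 2786th in untreated PANC-1, and CD55 5801st and 1536th in the same order. The table gives 1 value per gene, so the splice forms of CD44, of which the GENCODE annotation lists 39 transcripts, cannot be told apart. GENCODE also places antisense genes across CD82 and CD44 (AC010768.1 and AC010768.2, and CD44-AS1). None of them is in the table, and no source used here says that the counting used strand, so reads from these partners may be included. In bulk RNA, fewer cells with an mRNA and less of it per cell cannot be told apart.

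Without a statin, all 3 mRNAs were lower in MiaPaCa-2 than in PANC-1. CD82 stood at 7.85 and 8.67 FPKM in untreated MiaPaCa-2, against 48.6, 33.4 and 34.7 FPKM in untreated PANC-1. CD55 had 10.7 and 9.86 FPKM in untreated MiaPaCa-2, against 86.8, 79.7 and 63.9 FPKM in untreated PANC-1. CD44 reached 621 and 655 FPKM in untreated MiaPaCa-2, against 835, 1109 and 920.0 FPKM in untreated PANC-1. The libraries of the lines did not overlap for any of the 3. On the log2(FPKM + 1) scale the difference, MiaPaCa-2 minus PANC-1, was -2.09 for CD82 (SE 0.26, limma adjusted p = 3.65e-08), -2.77 for CD55 (SE 0.14, adjusted p = 4.31e-17) and -0.57 for CD44 (SE 0.08, adjusted p = 1.16e-07). Adjustment was by Benjamini-Hochberg over all genes of the table. All 3 genes passed the threshold of an adjusted p under 0.05, on a background where 64.6% of genes passed it in either direction and 28.7% as lower in MiaPaCa-2. Line and culture cannot be told apart in this comparison. The untreated libraries also enter the responses that chose the genes. A low MiaPaCa-2 control and a high PANC-1 control favour the opposite movement that chose CD82. These p-values are therefore not independent of the choice, least of all for CD82, and serve as a description.

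CD82 was higher under the statins in MiaPaCa-2, most of all at 20 µM. At 2 µM it stood at 13.6, 16.9 and 19.4 FPKM with fluvastatin, at 7.42, 12.7 and 10.2 FPKM with lovastatin and at 12.6, 11.2 and 21.6 FPKM with simvastatin, against 7.85 and 8.67 FPKM in the untreated libraries. The fluvastatin and simvastatin libraries all lay above the controls, whereas 1 lovastatin library lay below them. At 20 µM CD82 reached 61.7, 77.0 and 76.3 FPKM with fluvastatin, 81.9 and 72.7 FPKM with lovastatin and 35.3, 42.95 and 25.1 FPKM with simvastatin, against the same controls. Every 20 µM library lay above every control and above every 2 µM library of its statin. The ratio of mean FPKM to the control was 8.67 with fluvastatin, 9.36 with lovastatin and 4.17 with simvastatin. Averaged over the statins, the difference at 20 µM was 2.65 on the log2 scale (SE 0.23), the 55th highest of the 8534 genes fitted in MiaPaCa-2. At that dose 18.6% of the 8534 genes were called higher with each of the 3 statins and 21.1% lower.

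In PANC-1 the direction of the CD82 difference changed with the dose. At 2 µM CD82 stood at 55.7, 69.6 and 50.8 FPKM with fluvastatin, at 56.6, 65.6 and 47.0 FPKM with lovastatin and at 57.6, 44.2 and 51.55 FPKM with simvastatin, against 48.6, 33.4 and 34.7 FPKM in the untreated libraries. The fluvastatin libraries lay above all controls, and the lovastatin and simvastatin libraries overlapped with the highest control. At 20 µM it stood at 5.44, 4.56 and 9.49 FPKM with fluvastatin, at 16.8, 13.9 and 12.98 FPKM with lovastatin and at 12.1, 9.745 and 8.11 FPKM with simvastatin. Every 20 µM library lay below every untreated library and below every 2 µM library. The log2 differences from the control were -2.45 with fluvastatin, -1.35 with lovastatin and -1.86 with simvastatin (SE 0.21 each), and the untreated mean was 5.99, 2.67 and 3.9 times the mean with these statins in that order. The average, -1.88, was the 137th lowest of the 8615 genes fitted in PANC-1, where 16.3% of genes were called higher and 14.9% lower with all 3 statins at 20 µM. At 2 µM the average was 0.51 (SE 0.17).

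**Figure D1:**
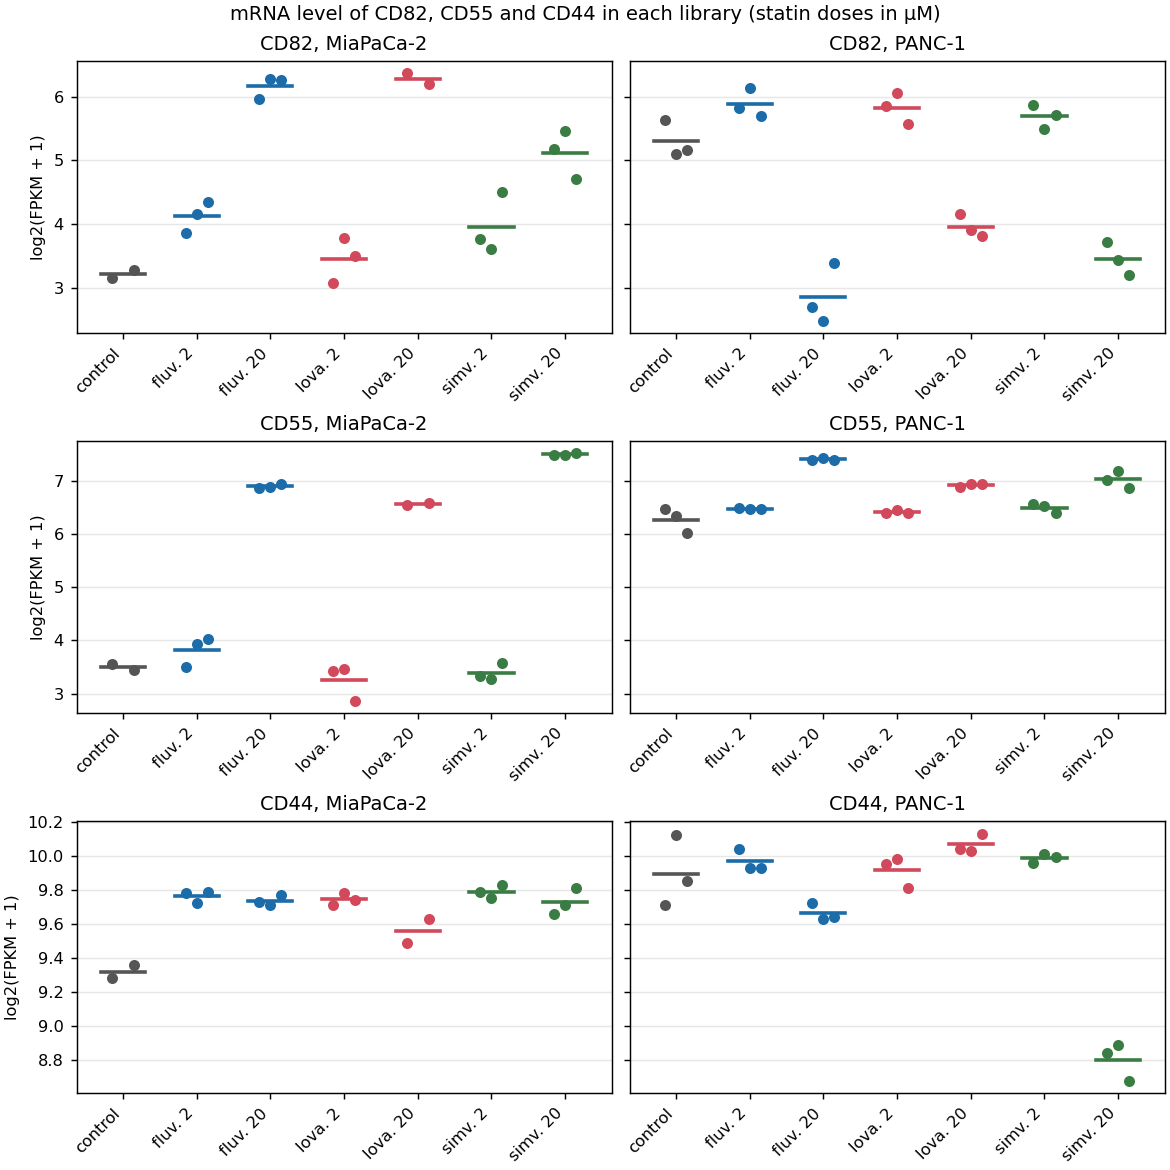
Level of CD82, CD55 and CD44 in each of the 40 libraries, as log2(FPKM + 1) on the vertical axis, by statin and dose in µM, with MiaPaCa-2 at the left and PANC-1 at the right; points are libraries and bars are group means. CD82 at 20 µM lies above the untreated libraries in MiaPaCa-2 and below them in PANC-1, CD55 at 20 µM lies above them in both lines, and CD44 is lowest in PANC-1 with 20 µM simvastatin.

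CD55 was higher at 20 µM of every statin in both lines and lay near the controls at 2 µM. In MiaPaCa-2 at 2 µM it stood at 10.3, 14.4 and 15.3 FPKM with fluvastatin, at 9.77, 10.0 and 6.30 FPKM with lovastatin and at 9.11, 8.69 and 10.8 FPKM with simvastatin, against 10.7 and 9.86 FPKM in the untreated libraries. All 3 groups overlapped with the controls. At 20 µM CD55 reached 115.5, 118 and 122 FPKM with fluvastatin, 93.0 and 94.7 FPKM with lovastatin and 179, 177 and 181 FPKM with simvastatin. The replicates lay close together and far above the controls, with ratios of mean FPKM of 11.5, 9.12 and 17.4 for these statins in that order. The average difference at 20 µM was 3.49 on the log2 scale (SE 0.14), the 16th highest of the 8534 genes.

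The CD55 difference in PANC-1 had the same direction from a higher untreated level. At 2 µM CD55 stood at 88.6, 87.3 and 86.8 FPKM with fluvastatin, at 83.25, 85.85 and 82.8 FPKM with lovastatin and at 94.2, 91.0 and 82.7 FPKM with simvastatin, against 86.8, 79.7 and 63.9 FPKM in the untreated libraries. Each 2 µM group touched or overlapped the range of the controls. At 20 µM it reached 167, 171 and 165 FPKM with fluvastatin, 117, 122 and 122 FPKM with lovastatin and 129, 145 and 116 FPKM with simvastatin. All 9 libraries lay above the controls and above those at 2 µM. The ratios of mean FPKM to the control were 2.18 with fluvastatin, 1.57 with lovastatin and 1.7 with simvastatin. The average at 20 µM was 0.85 on the log2 scale (SE 0.08), the 825th highest of 8615 genes. At 20 µM the CD55 levels of both lines came into 1 range, 93.9 to 179 FPKM for the MiaPaCa-2 group means and 120.5 to 168 FPKM for the PANC-1 group means, where the untreated means were 10.3 FPKM in MiaPaCa-2 and 76.8 FPKM in PANC-1.

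CD44 was higher with every statin at both doses in MiaPaCa-2. At 2 µM it stood at 878, 842 and 886 FPKM with fluvastatin, at 835, 878 and 855 FPKM with lovastatin and at 886, 863 and 912 FPKM with simvastatin, against 621 and 655 FPKM in the untreated libraries. At 20 µM it stood at 849, 835 and 870.0 FPKM with fluvastatin, at 719.7 and 793 FPKM with lovastatin and at 811, 835 and 894.5 FPKM with simvastatin. All statin groups lay above both controls at both doses, by ratios of 1.19 to 1.39. Only lovastatin gave 20 µM libraries that all lay below those at 2 µM. At 2 µM the average difference of CD44 was 0.45 on the log2 scale (SE 0.04), on a background where 16.8% of genes were called higher and 16.7% lower with all 3 statins. It was the 1608th highest of the 8534 genes. At 20 µM the average was 0.36 (SE 0.04), the 2804th highest, so CD44 lay within the bulk of genes at both doses.

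In PANC-1 the statins differed in their CD44 levels. At 2 µM CD44 stood at 1055, 976.5 and 976.5 FPKM with fluvastatin, at 987, 1007 and 894.5 FPKM with lovastatin and at 996, 1027 and 1017 FPKM with simvastatin, against 835, 1109 and 920.0 FPKM in the untreated libraries. All of these groups overlapped with the controls, which spread widely. At 20 µM it stood at 842, 793 and 799 FPKM with fluvastatin, at 1055, 1046 and 1120 FPKM with lovastatin and at 458, 474 and 408 FPKM with simvastatin. Only the simvastatin group lay apart from the controls, below them, with a log2 difference of -1.09 (SE 0.08) and an untreated mean 2.14 times its own. Averaged over the 3 statins, the difference at 20 µM was -0.38 (SE 0.07), the 2238th lowest of 8615 genes. The PANC-1 group with 20 µM simvastatin had the lowest CD44 mean of all 14 groups, 447 ± 34.3 FPKM (SD, n = 3).

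Over the 14 groups the order of the means was as follows. CD82 was highest in MiaPaCa-2 with 20 µM lovastatin (77.3 ± 6.5 FPKM, SD, n = 2) and 20 µM fluvastatin (71.7 ± 8.66 FPKM, n = 3), whose ranges overlapped, and lowest in PANC-1 with 20 µM fluvastatin (6.5 ± 2.63 FPKM, n = 3), whose range overlapped with that of untreated MiaPaCa-2 (8.26 ± 0.583 FPKM, n = 2). CD55 was highest in MiaPaCa-2 with 20 µM simvastatin (179 ± 2.08 FPKM, n = 3), apart from PANC-1 with 20 µM fluvastatin (168 ± 3.26 FPKM, n = 3). Its lowest 4 groups were MiaPaCa-2 at 2 µM or untreated, each overlapping with the next. CD44 was highest in PANC-1 with 20 µM lovastatin (1074 ± 40.2 FPKM, n = 3), apart from the group after it, and the means from the 2nd to the 12th overlapped each with its neighbour.

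The differences between statins at the same dose were not named in the rule that chose the genes and were tested. The statin libraries compared here also entered the responses that chose the genes, and earlier results of these data were known. These p-values are therefore not fully independent of the choice. There were 12 pairs, 3 at each dose in each line, and so 36 tests over the 3 genes. The limma test with Benjamini-Hochberg adjustment over all genes of a line called 13 of them. At 20 µM 13 of 18 were called and at 2 µM 0 of 18, where 4 had an unadjusted p under 0.05, all in MiaPaCa-2 and of CD82 or CD55. With the limma p-values adjusted over these 36 tests alone, the same pairs passed at 20 µM. At 2 µM in MiaPaCa-2 that adjustment passed fluvastatin against lovastatin for CD55 (0.00494) and CD82 (0.0262). It also passed fluvastatin against simvastatin for CD55 there (0.0262). The background at 2 µM was 0% of all genes for fluvastatin against lovastatin, 0.562% for fluvastatin against simvastatin and 0.293% for simvastatin against lovastatin in MiaPaCa-2, and 0.0116%, 0.0116% and 0% for these pairs in PANC-1. At 20 µM in MiaPaCa-2 it was 23.5% for fluvastatin against lovastatin, 56.2% for fluvastatin against simvastatin and 37.3% for simvastatin against lovastatin. In PANC-1 it was 30.7%, 47.5% and 38.5% for the same pairs.

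For CD82 at 20 µM, the level with simvastatin lay below those with the other statins in MiaPaCa-2, and in PANC-1 fluvastatin lay below lovastatin. In MiaPaCa-2 fluvastatin gave 1.06 more than simvastatin on the log2 scale (95% interval 0.56 to 1.56, adjusted p = 0.00115), and simvastatin minus lovastatin was -1.17 (-1.73 to -0.62, adjusted p = 0.00239). In both pairs the libraries did not overlap. Fluvastatin minus lovastatin was -0.11 in MiaPaCa-2, with an interval of -0.67 to 0.44 that leaves room for a difference either way. In PANC-1 fluvastatin minus lovastatin was -1.1 (-1.55 to -0.65, adjusted p = 0.000707), with every fluvastatin library below every lovastatin library. Fluvastatin minus simvastatin was -0.59 (-1.04 to -0.14, adjusted p = 0.0303). The ranges of that last pair overlapped, and leaving out fluvastatin library 1 or 2 or simvastatin library 1 or 2 ended the call (-0.4 to -0.6, adjusted p = 0.0577 to 0.161), as did fitting the 2 groups alone (-0.59, adjusted p = 0.118). Simvastatin minus lovastatin was -0.51 in PANC-1 (-0.96 to -0.06, adjusted p = 0.0676), and it was called without simvastatin library 1 (-0.65, adjusted p = 0.0406).

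For CD55 at 20 µM, simvastatin gave the highest level in MiaPaCa-2 and fluvastatin in PANC-1. In MiaPaCa-2 simvastatin minus lovastatin was 0.92 (0.57 to 1.28, adjusted p = 0.000442), and fluvastatin minus simvastatin was -0.59 (-0.91 to -0.28, adjusted p = 0.00302). Fluvastatin minus lovastatin was 0.33 (-0.02 to 0.69, adjusted p = 0.167), although the libraries did not overlap, and it was called when those 2 groups were fitted alone (adjusted p = 0.033). In PANC-1 fluvastatin minus lovastatin was 0.47 (0.28 to 0.67, adjusted p = 0.00071) and fluvastatin minus simvastatin was 0.37 (0.17 to 0.56, adjusted p = 0.00331), again with ranges apart. Simvastatin minus lovastatin was 0.11 in PANC-1 (-0.09 to 0.3, adjusted p = 0.388).

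For CD44 at 20 µM, all 3 pairs were called in PANC-1. Simvastatin minus lovastatin was -1.27 (-1.44 to -1.09, adjusted p = 1.18e-08), fluvastatin minus simvastatin was 0.86 (0.69 to 1.03, adjusted p = 2.59e-07) and fluvastatin minus lovastatin was -0.4 (-0.58 to -0.23, adjusted p = 0.00101). The libraries of these 3 statins did not overlap, with lovastatin highest, fluvastatin between and simvastatin lowest. In MiaPaCa-2 lovastatin was lower by far less, with fluvastatin minus lovastatin at 0.17 (0.07 to 0.28, adjusted p = 0.0177) and simvastatin minus lovastatin at 0.16 (0.06 to 0.27, adjusted p = 0.015). Both MiaPaCa-2 calls were lost without lovastatin library 1, at 0.1 (adjusted p = 0.233) and 0.09 (adjusted p = 0.23). The first was also lost without fluvastatin library 3 (0.16, adjusted p = 0.0576) and the second without simvastatin library 3 (0.12, adjusted p = 0.067). Other fits lost both as well: the 2 groups alone (limma adjusted p = 0.0682 and 0.0963) and a joint fit of both lines (0.108 and 0.094). A plain moderated variance also lost both (0.0979 and 0.0852). Fluvastatin minus simvastatin was 0.01 in MiaPaCa-2, with an interval of -0.08 to 0.1.

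At 2 µM the intervals were widest for CD82 in MiaPaCa-2, where fluvastatin minus lovastatin was 0.68 (0.18 to 1.18, adjusted p = 0.402). The same pair gave 0.57 for CD55 (0.25 to 0.89, adjusted p = 0.225). In both genes the fluvastatin libraries lay above the lovastatin libraries. The CD55 difference was called in a joint fit of both lines (adjusted p = 0.0202) and without fluvastatin library 1 (0.73, adjusted p = 0.0341). In PANC-1 no difference at 2 µM for any of the 3 genes was larger than 0.19 in size on the log2 scale.

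**Figure D2:**
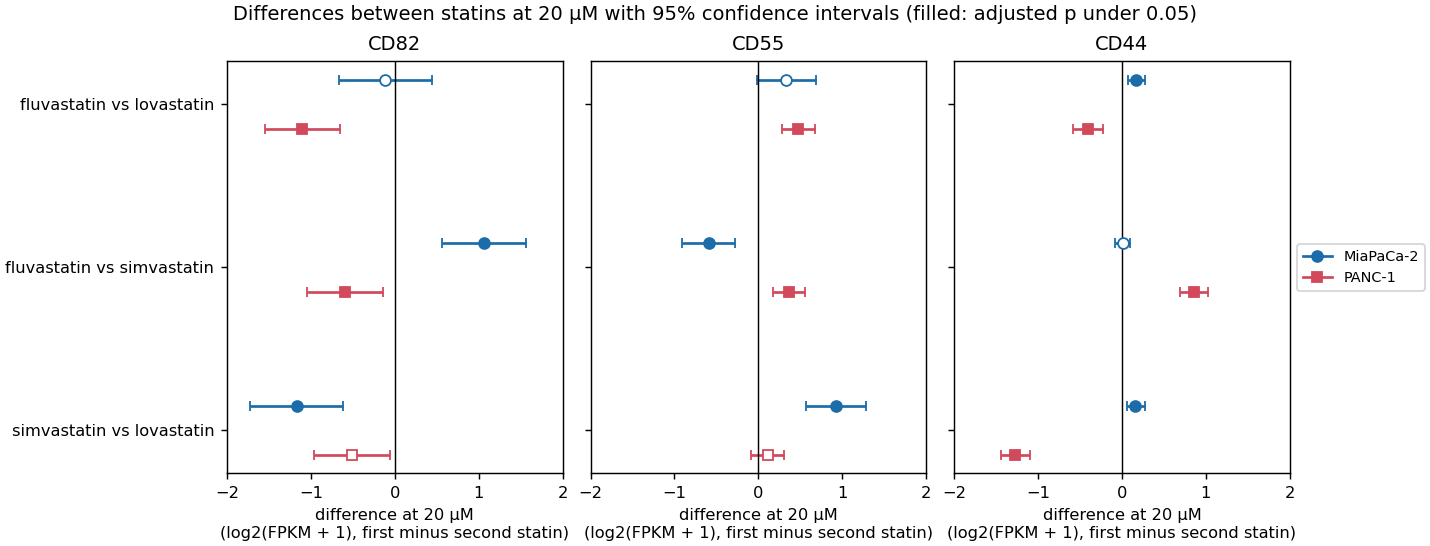
Differences between statins at 20 µM on the log2(FPKM + 1) scale (horizontal axis, first named statin minus second) with 95% confidence intervals, for CD82, CD55 and CD44 in MiaPaCa-2 (circles) and PANC-1 (squares); filled symbols passed an adjusted p under 0.05. For fluvastatin against simvastatin the CD82 and CD55 points lie on opposite sides of 0 in the 2 lines, and simvastatin against lovastatin for CD44 is -1.27 in PANC-1 and 0.16 in MiaPaCa-2.

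Whether a pair of statins differed by another amount in MiaPaCa-2 than in PANC-1 was tested in the joint fit, a test added after the values had been seen. CD82 is left out of this test, since its opposite movement at 20 µM in the lines chose it. For CD55 and CD44, 5 of 6 line differences passed at 20 µM. For fluvastatin against simvastatin, the difference in MiaPaCa-2 minus that in PANC-1 was -0.96 for CD55 (SE 0.17, adjusted p = 4.03e-05) and -0.85 for CD44 (SE 0.1, adjusted p = 1.54e-08), beside 51.1% of all genes called in that contrast. The CD55 difference had opposite signs in the lines, at -0.59 in MiaPaCa-2 and 0.37 in PANC-1. For simvastatin against lovastatin it was 0.82 for CD55 (SE 0.19, adjusted p = 0.000873) and 1.43 for CD44 (SE 0.1, adjusted p = 8.66e-12), with a background of 39.0%. For fluvastatin against lovastatin it was 0.58 for CD44 (SE 0.1, adjusted p = 0.000107) and -0.14 for CD55 (SE 0.19, 95% interval -0.52 to 0.24, adjusted p = 0.652), with a background of 19.0%. At 2 µM 0 of 6 were called by limma, 2 had an unadjusted p under 0.05 (both CD55), and the background was 0% to 0.0458%, with 0.0114% for fluvastatin against lovastatin. The CD55 line difference for that pair at 2 µM, 0.51, was called without MiaPaCa-2 fluvastatin library 1 (0.67, adjusted p = 0.0497).

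The patterns of CD82 and CD55 ran together in MiaPaCa-2 and against each other in PANC-1. Over the group means the Pearson correlation was 0.88 for the 7 MiaPaCa-2 groups and -0.94 for the 7 PANC-1 groups, and 0.41 over all 14. The points of a line share its culture and scaling, and the groups at 20 µM lie apart from the others. CD82 was chosen for its opposite movement in the lines, and CD55 was higher at 20 µM in both. The opposite signs of these correlations therefore follow from the choice and are no separate result. In MiaPaCa-2 CD44 correlated at 0.18 with CD82 and at 0.1 with CD55, against 0.56 and -0.47 in PANC-1.

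**Figure D3:**
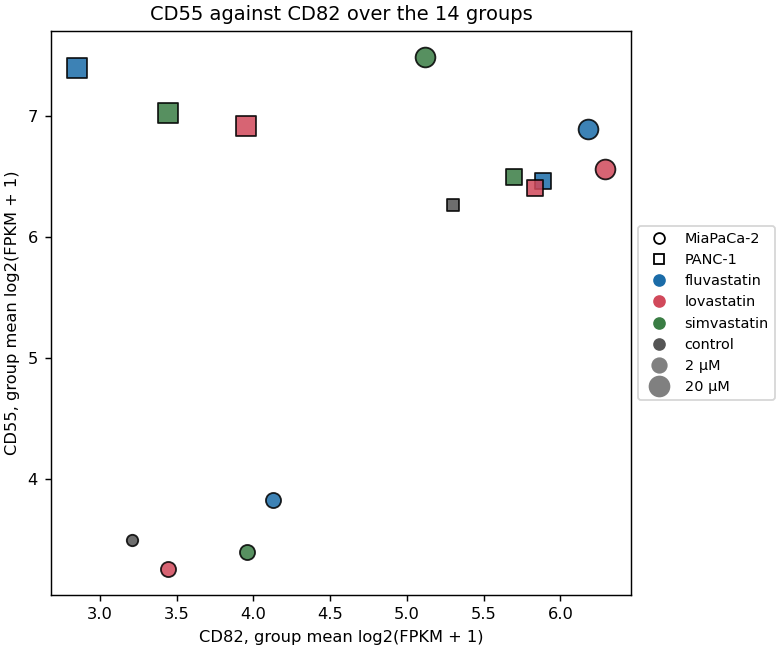
Mean log2(FPKM + 1) of CD55 (vertical axis) against that of CD82 (horizontal axis) in the 14 groups; circles are MiaPaCa-2, squares PANC-1, colours the statins and symbol size the dose. The MiaPaCa-2 groups run up to the right (r = 0.88) and the PANC-1 groups run up to the left (r = -0.94), and in each line the 3 groups at 20 µM lie apart from the others. The opposite slopes follow from the choice of CD82 by its opposite movement in the lines.

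The genes with the pattern most like each member over the 14 group means were found by Pearson correlation on the log2(FPKM + 1) scale. For CD82 they were FAM198B (r = 0.91), CSF1 (0.89), STAT3 (0.88), TNFAIP2 (0.86) and S100A3 (0.84), and within either line alone each of these stayed at 0.83 or higher. For CD55 they were ABTB2, HEG1, DVL1 and TSC22D2 at 0.97 and FBXO32 at 0.96. Their correlation with CD55 within PANC-1 was 0.48 for ABTB2 and 0.55 for HEG1 and between 0.8 and 0.85 for the others. For CD44 they were POLR2A (0.89), PRDM15 (0.88), HP1BP3 (0.86), QKI (0.85) and LMLN (0.84). Within MiaPaCa-2 these 5 reached no more than 0.65, and within PANC-1 they reached 0.93 to 0.96.

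The other genes of each protein's pathway were taken from lists and tested with the whole table, each statin at 20 µM against the control of its line. The lists were drawn up with earlier results of these data known. A gene is counted below when it was called in the same direction with all 3 statins, which 18.6% of all genes were as higher and 21.1% as lower in MiaPaCa-2, and 16.3% and 14.9% in PANC-1. Median differences over all genes lay between -0.01 and 0.03 on the log2 scale.

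Of 31 tetraspanins and their direct partners 16 were in the table. In MiaPaCa-2 2 rose and 2 fell, with a median of 0.17, and in PANC-1 6 rose and 2 fell, with a median of 0.4. The count that fell was 1 in MiaPaCa-2 without control 1 or 2 or simvastatin library 1 or 2 or with a plain moderated variance, and 1 in PANC-1 without control 1. CD151, the tetraspanin that binds laminin-binding integrins, rose in both lines, with means of 243, 201 and 175 FPKM with fluvastatin, lovastatin and simvastatin at 20 µM against 99.2 FPKM in untreated MiaPaCa-2, and 667, 622 and 524 FPKM with the same statins against 399 FPKM in untreated PANC-1. TSPAN4, known from migrasomes, fell in both lines, by 1.17 on the log2 scale on average in MiaPaCa-2 (SE 0.11, adjusted p = 1.62e-07) and by 0.8 in PANC-1 (SE 0.06, adjusted p = 4.43e-09). TSPAN18 fell in PANC-1, to 1.16, 2.57 and 1.07 FPKM with fluvastatin, lovastatin and simvastatin, against 5.1 FPKM in untreated cells (-1.28 on average, SE 0.19, adjusted p = 1.87e-05). Its fall with lovastatin in PANC-1 was lost without control 1 (-0.66, adjusted p = 0.0575). In MiaPaCa-2 TSPAN18 reached 1 FPKM in 5 libraries, all at 20 µM, so that it passed the filter through groups in which it was higher, and its means there were 1.99, 0.951 and 0.866 FPKM with these statins against 0.459 ± 0.457 FPKM in untreated cells (SD, n = 2).

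Of 17 complement regulators other than CD55 4 were in the table, of which 3 were tested in MiaPaCa-2. With all 3 statins 1 of 3 rose in MiaPaCa-2, with a median of 0.42 for the list, and 3 of 4 rose in PANC-1, with a median of 0.76. CLU, the secreted chaperone clusterin that blocks the membrane attack complex, was the gene called with all 3 statins in both lines. It averaged 1020, 680 and 448 FPKM with fluvastatin, lovastatin and simvastatin at 20 µM against 190 FPKM in untreated MiaPaCa-2, and 1280, 1200 and 852 FPKM with the same statins against 645 FPKM in untreated PANC-1. Unlike CD55 in MiaPaCa-2, CLU was lowest with simvastatin among the statins. CD46, the membrane cofactor for cleavage of C3b, had 199 ± 10.2, 121 ± 7.65 and 87.4 ± 5.74 FPKM with these statins against 95.2 ± 4.03 FPKM in untreated MiaPaCa-2 (SD). It rose there with fluvastatin (1.05, adjusted p = 4.66e-08), and with simvastatin the difference was -0.12 (adjusted p = 0.244). In PANC-1 CD46 rose with fluvastatin and lovastatin by 1.01 and 0.9 (adjusted p = 6.85e-07 and 5.74e-06), and its call with simvastatin there was lost without control 1 or simvastatin library 1 or 2 (0.25 to 0.28, adjusted p = 0.0727 to 0.0983). THBD, thrombomodulin, was fitted in PANC-1 alone and rose there by 1.33 on average (SE 0.11, adjusted p = 9.1e-09). Of 25 complement components 6 were in the table, and C1QBP, a protein that binds C1q and works mainly in mitochondria, was the gene called in the same direction with all 3 statins, lower in both lines (-1.41 in MiaPaCa-2, SE 0.07, adjusted p = 9.38e-11, and -0.98 in PANC-1, SE 0.07, adjusted p = 2.41e-09). The median for the list was 0.43 in MiaPaCa-2 and 0 in PANC-1. With a pseudocount of 0.1 another component was called higher in MiaPaCa-2.

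Of 28 genes for GPI anchors, the lipid tail that holds CD55, 15 were in the table, and in each line 2 rose and 3 fell, with a median of 0.09 in MiaPaCa-2 and of 0.1 in PANC-1. These counts rested on single libraries. In MiaPaCa-2 0 rose and 1 fell without control 2, 1 rose without simvastatin library 2 and 5 fell without simvastatin library 3. In PANC-1 1 rose and 1 fell without control 2, and 1 rose without fluvastatin library 1 or 2. PIGK, a subunit of the transamidase that attaches the anchor, had means of 19.6, 10.7 and 10.9 FPKM with fluvastatin, lovastatin and simvastatin at 20 µM against 34.2 FPKM in untreated MiaPaCa-2, and 31.1, 33.6 and 31.5 FPKM with the same statins against 55 FPKM in untreated PANC-1. Its average difference was -1.32 in MiaPaCa-2 (SE 0.21, adjusted p = 3.72e-05) and -0.8 in PANC-1 (SE 0.18, adjusted p = 0.000928). Single calls of PIGK were near the threshold, since fluvastatin in MiaPaCa-2 gave -0.66 (adjusted p = 0.0798) without control 2 and lovastatin in PANC-1 gave -0.64 (adjusted p = 0.0501) without control 2. PIGP, part of the enzyme that starts the anchor, was higher in MiaPaCa-2 by 0.76 on average (SE 0.15, adjusted p = 0.000273), where the simvastatin call was lost without control 2 (0.4, adjusted p = 0.133) or simvastatin library 2 (0.36, adjusted p = 0.068), and its average difference in PANC-1 was 0.04 (adjusted p = 0.779).

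Of 21 genes that make, break down or bind hyaluronan, the ligand of CD44, 6 were in the table. In PANC-1 4 fell and 0 rose, with a median of -0.63, and in MiaPaCa-2 1 of 5 rose and 1 fell, with a median of 0.18. Without PANC-1 simvastatin library 3, 1 rose in PANC-1. HMMR, a hyaluronan-binding protein of the mitotic spindle, fell most, to 3.95, 11.3 and 7.64 FPKM with fluvastatin, lovastatin and simvastatin at 20 µM, against 54.9 FPKM in untreated PANC-1, and to 18.8, 19.5 and 24.1 FPKM with the same statins, against 83.3 FPKM in untreated MiaPaCa-2. HAPLN3, a link protein that joins hyaluronan to proteoglycans, fell in PANC-1 by 1.25 on average (SE 0.09, adjusted p = 1.78e-09), and in MiaPaCa-2 its difference was 0.18 (SE 0.22, adjusted p = 0.485). The line difference of HAPLN3, 1.43, passed the test (adjusted p = 9.45e-06), as did that of 37.6% of all genes. HAPLN3 had little room to fall in MiaPaCa-2, at 1.04 ± 0.565 FPKM in untreated cells (SD, n = 2). HAS2, a hyaluronan synthase, was fitted in PANC-1 alone and fell there by 0.82 on average (SE 0.14, adjusted p = 4.7e-05). UGDH, which makes the sugar nucleotide for hyaluronan, rose in MiaPaCa-2 by 0.52 on average (SE 0.11, adjusted p = 0.000436) and in PANC-1 by 0.43 (SE 0.1, adjusted p = 0.00175). With simvastatin the PANC-1 difference was 0.09 (adjusted p = 0.558), and it was called without simvastatin library 3 (0.27, adjusted p = 0.0369).

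Of 22 CD44 ligands, linkers to the cytoskeleton, sheddases and splicing factors 19 were in the table. In MiaPaCa-2 3 of 17 rose and 8 fell, with a median of -0.24, and in PANC-1 4 of 19 rose and 6 fell, with a median of -0.39. EZR, which encodes the linker ezrin, rose in both lines, to 493, 396 and 466 FPKM with fluvastatin, lovastatin and simvastatin at 20 µM, against 164 FPKM in untreated MiaPaCa-2, and to 465, 319 and 315 FPKM with the same statins, against 141 FPKM in untreated PANC-1. HNRNPM, a splicing factor known to act on CD44 exons, fell in both lines, by 1.5 on average in MiaPaCa-2 (SE 0.15, adjusted p = 1.65e-07) and by 1.32 in PANC-1 (SE 0.17, adjusted p = 2.86e-06). NF2, whose product merlin competes with ezrin at the tail of CD44, fell in MiaPaCa-2 with all 3 statins, to 6.95, 5.73 and 7.4 FPKM with fluvastatin, lovastatin and simvastatin, against 23.8 FPKM in untreated cells. In PANC-1 NF2 fell with fluvastatin (-1.35, adjusted p = 7.87e-08) and rose with lovastatin (0.46, adjusted p = 0.00878). TIMP1, an inhibitor of metalloproteases, fell in MiaPaCa-2 by 1.51 on average (SE 0.06, adjusted p = 1.17e-12), with all 3 statins called. In PANC-1 TIMP1 was lower with fluvastatin (-0.47, adjusted p = 0.0123) and higher with lovastatin (0.48, adjusted p = 0.0157). The first call was lost without control 3 (-0.2, adjusted p = 0.0713) and the second without control 1 or 2 or lovastatin library 1 (0.34 to 0.42, adjusted p = 0.0607 to 0.0949). With simvastatin the PANC-1 difference of TIMP1 was 0.24 (adjusted p = 0.188), and it was called without control 3 (0.51, adjusted p = 0.00021).

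Of 28 other surface proteins of carcinoma cells 19 were in the table. In MiaPaCa-2 3 rose and 2 fell, with a median of 0.29, and in PANC-1 6 of 18 rose and 1 fell, with a median of 0.22. In MiaPaCa-2 1 fell without lovastatin library 2. In PANC-1 3 rose and 2 fell without control 1, and 0 fell without control 2 or 3, without fluvastatin library 1 or 3, or with a plain moderated variance. L1CAM, an adhesion molecule of the immunoglobulin family, rose in both lines, to 115, 93 and 112 FPKM with fluvastatin, lovastatin and simvastatin at 20 µM, against 11 FPKM in untreated MiaPaCa-2, and to 212, 123 and 132 FPKM with the same statins, against 47 FPKM in untreated PANC-1. EGFR, the epidermal growth factor receptor, rose in MiaPaCa-2 with all 3 statins (1.83 on average, SE 0.11, adjusted p = 8.25e-10). In PANC-1 EGFR rose with fluvastatin and lovastatin (0.64 each) and fell with simvastatin (-0.3, adjusted p = 0.00266), the statin with which CD44 was lowest there. NT5E, a GPI-anchored enzyme that makes adenosine, fell in MiaPaCa-2 by 1.17 on average (SE 0.13, adjusted p = 7.38e-07). In PANC-1 NT5E fell with fluvastatin (-2.39, adjusted p = 1.58e-15) and simvastatin (-0.54, adjusted p = 1.84e-06) and rose with lovastatin (0.64, adjusted p = 3.85e-07). PLAUR, the GPI-anchored receptor of urokinase, fell with fluvastatin in MiaPaCa-2 (-1.96, adjusted p = 2.59e-07) and rose there with lovastatin (1.19, adjusted p = 0.000192). It also rose there with simvastatin (0.74, adjusted p = 0.00363), a call that was lost without control 1 (0.55, adjusted p = 0.0698). In PANC-1 PLAUR rose with all 3 statins, by 1 on average (SE 0.26, adjusted p = 0.00282), where the lovastatin and simvastatin calls were lost without control 1 or 2 and the lovastatin call also without lovastatin library 1 (0.74 to 0.9, adjusted p = 0.0563 to 0.0865).

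**Figure D4:**
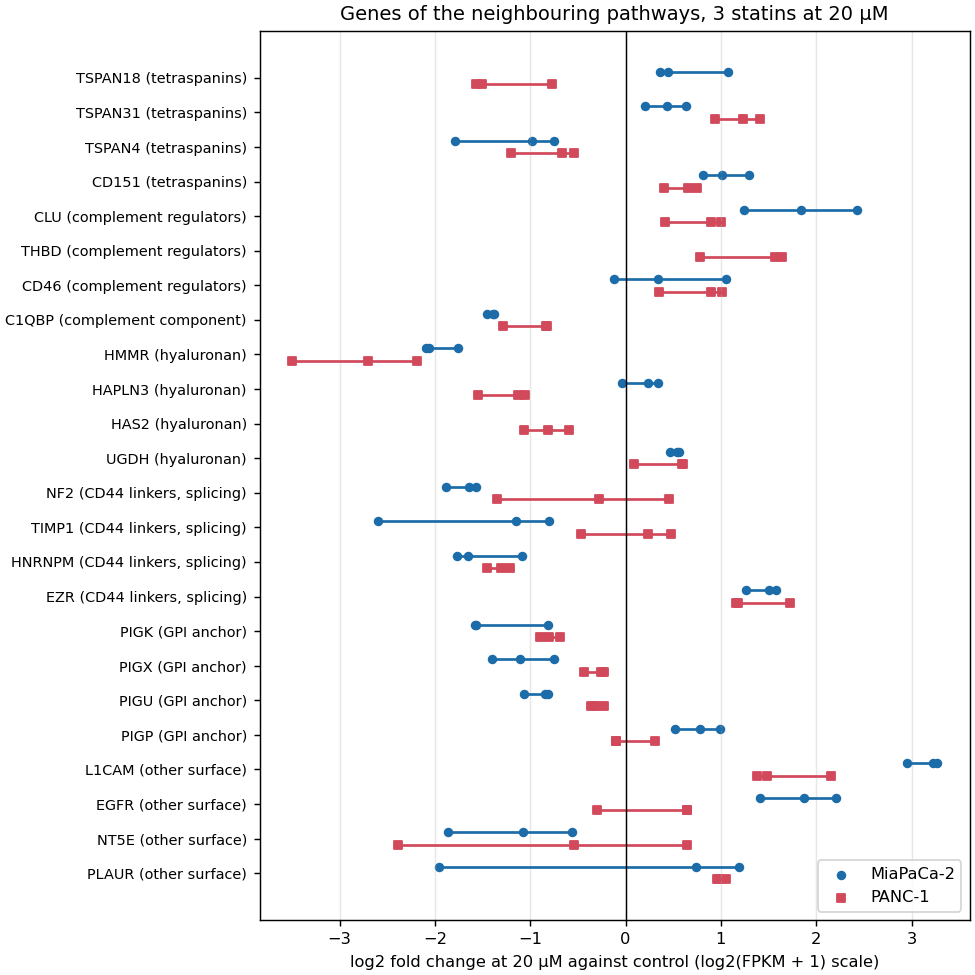
Log2 fold change against the control of the same line with 20 µM of each of the 3 statins (horizontal axis, log2(FPKM + 1) scale) for 24 list genes that were called in the same direction with all 3 statins in at least 1 line; each point is a statin, lines join the 3 statins, circles are MiaPaCa-2 and squares PANC-1, with THBD and HAS2 shown for PANC-1 alone. L1CAM, CLU, CD151 and EZR lie to the right of 0 in both lines and HMMR, C1QBP, HNRNPM and TSPAN4 to the left in both.

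At 2 µM, of 81 list genes tested in MiaPaCa-2, 21 were higher and 11 lower with all 3 statins, where 16.8% of all genes were called higher and 16.7% lower. Of 83 list genes tested in PANC-1, 6 were higher and 1 lower, where 1.33% of all genes were called higher and 0.325% lower. The MiaPaCa-2 count of lower genes was 7 without control 1 and 5 without control 2, and the PANC-1 count of higher genes was 3 without simvastatin library 2 or 3. L1CAM rose at 2 µM in MiaPaCa-2 with all 3 statins, by 1.81 on average (SE 0.14, adjusted p = 2.43e-08), and in PANC-1 by 0.39 (SE 0.08, adjusted p = 0.00718). C1QBP fell at 2 µM in MiaPaCa-2 by 0.73 (SE 0.07, adjusted p = 6.89e-07). It was the 1 complement component of 6 called lower there with all 3 statins, whereas 4 were called higher, with a list median of 1.06. That count of 4 ranged from 2 to 4 when single libraries were left out. In PANC-1 at 2 µM 1 of 5 components was higher and 0 lower, with a median of 0.01.

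The cell type was checked with markers. Of 7 epithelial markers 6 were in the table. The keratin mRNAs KRT8, KRT18 and KRT19 stood at 556, 440 and 135 FPKM in untreated MiaPaCa-2 and at 607, 434 and 290 FPKM in untreated PANC-1. EPCAM and CDH1 were near 0 in untreated MiaPaCa-2, at 0.273 and 0.927 FPKM, and stood at 53.4 and 41 FPKM in untreated PANC-1. The summed epithelial markers ran from 860 to 1000 FPKM at 20 µM and from 1160 to 1190 FPKM in untreated MiaPaCa-2, and from 1420 to 1590 FPKM at 20 µM and 1350 to 1560 FPKM in untreated PANC-1. These sums hide markers that ranged apart. Over all MiaPaCa-2 libraries KRT8 ran from 250 to 591 FPKM, KRT18 from 133 to 454 and KRT19 from 132 to 416. CLDN4, at 42.4 FPKM untreated, ran from 40.8 to 207, EPCAM from 0.0654 to 29.3 and CDH1 from 0.0579 to 3.21. In PANC-1 KRT8 ran from 398 to 663 FPKM, KRT18 from 259 to 442, KRT19 from 267 to 400 and EPCAM from 37 to 81.5. CDH1 ran there from 18.1 to 142, and CLDN4, at 66.9 FPKM untreated, from 63.3 to 292. Of 6 fibroblast markers COL1A1 and COL1A2 were in the table. They stood at 1.26 and 61.3 FPKM in untreated MiaPaCa-2 and at 142 and 8.6 FPKM in untreated PANC-1. Their sum, led by another gene in each untreated line, moved with the treatment. In MiaPaCa-2 at 20 µM it was 179 to 217 FPKM with fluvastatin, 141 to 150 FPKM with lovastatin and 26 to 38.3 FPKM with simvastatin. The untreated MiaPaCa-2 libraries gave 55.5 to 69.7 FPKM. In PANC-1 that sum was 54.6 to 122 FPKM at 20 µM and 138 to 159 FPKM in the untreated libraries. Of 5 leukocyte markers CD68 was in the table, at 8.85 to 42.3 FPKM at 20 µM and 11.4 to 14.2 FPKM in untreated MiaPaCa-2. In PANC-1 CD68 stood at 25.2 to 45.8 FPKM at 20 µM and at 30.9 to 38.5 FPKM in the untreated libraries. Of 4 mesenchymal markers 3 were in the table: VIM, ZEB1 and CDH2. They stood at 2970, 15.4 and 0.922 FPKM in untreated MiaPaCa-2 and at 2380, 6.56 and 22.6 FPKM in untreated PANC-1. Over all MiaPaCa-2 libraries ZEB1 ran from 10 to 23.3 FPKM and CDH2 from 0.0375 to 0.936, so CDH2 hardly exceeded its untreated mean. In PANC-1 ZEB1 ran from 4.27 to 9.33 FPKM and CDH2 from 12.9 to 29.1. The sum of the 3, almost all of it VIM, moved with the treatment too. In MiaPaCa-2 it was 4270 to 4620 FPKM with fluvastatin, 3330 to 3470 FPKM with lovastatin and 3330 to 3960 FPKM with simvastatin at 20 µM, against 2950 to 3030 FPKM in the untreated libraries. In PANC-1 it was 2040 to 2210 FPKM with fluvastatin, 2250 to 2350 FPKM with lovastatin and 1650 to 1820 FPKM with simvastatin, the group in which CD44 was lowest, against 2210 to 2710 FPKM in the untreated libraries. Of 4 endothelial markers 0 were in the table. The part of these markers in the levels of CD82, CD55 and CD44 was not tested.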

How the data were processed

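Total RNA was extracted, mRNA was captured with poly-T beads and libraries were primed with random hexamers and read as pairs on an Illumina instrument, per the labels' protocols. Per the submitters' processing notes, the build was hg19 and the tools were TopHat2 2.0.13, Cuffdiff and Cufflinks 1.1. The authors deposited 1 table of log2 FPKM for 8738 genes and 42 columns. Its values ran from 0.00424 to 12.77, all above 0, which fits a pseudocount of 1 that no source used here states. The text therefore converts them as log2(FPKM + 1), and differences on this scale understate the change of low genes. In the independent columns at least 97.1% of values recurred in 5 or more columns, as after scaling to a shared distribution, a step not given in the sources used here. How the genes of the table were chosen is not given either, so ranks and shares hold for this table.

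The 2 columns that were weighted sums of others were left out. Genes with at least 1 FPKM in at least 3 libraries of a line (8534 in MiaPaCa-2, 8615 in PANC-1; 8738 in the joint fit) entered a model with a mean for each group. The model was fitted in R 4.3.3 with limma 3.58.1, using a mean-variance trend and robust moderation. P-values were adjusted by Benjamini-Hochberg over all genes of a contrast and called at 0.05, two-sided. The fit was tested on simulated data. The members and lists were chosen with earlier results of these data known. List genes were named by rule: up to 4 per list with the largest mean change at 20 µM among genes called alike with all 3 statins in a line. PIGU, PIGX and other genes so named stand in the plot where not in the text. Replicate numbers were not used as pairs. Alternatives tried were leaving out each library, all 42 columns, another variance model, 2 groups alone, a joint fit, a replicate block, quantile normalization, no filter and a pseudocount of 0.1. Quantile normalization could move little here, because the columns already shared most of their values, so it is a weak check of the scaling.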

Additional observations from a re-analysis of the deposited data

Results flagged for a closer look

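Differences between the lines in a response are given as MiaPaCa-2 minus PANC-1 on the log2(FPKM + 1) scale, with no explanation. For the members, these differences were not tested, because the response to the statins chose the genes. All libraries of each group moved to opposite sides of the mean of their control in the 2 lines for the following. CD82 differed by 5.41 with fluvastatin, 4.42 with lovastatin and 3.76 with simvastatin at 20 µM. CD44 differed by 0.64 with fluvastatin and 1.49 with simvastatin at 20 µM, and CD55 by -0.38 with lovastatin at 2 µM. The CD55 value rests on single libraries: its MiaPaCa-2 part, -0.24, was -0.05 without lovastatin 2 µM library 3, and its PANC-1 part, 0.14, was 0.01 without control 3.

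Among differences between statins at 20 µM, the following differed between the lines by the limma test given in the report. Fluvastatin against lovastatin differed by 0.58 for CD44. Fluvastatin against simvastatin differed by -0.96 for CD55 and -0.85 for CD44. Simvastatin against lovastatin differed by 0.82 for CD55 and 1.43 for CD44.

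The mean response to the 3 statins at 20 µM differed between the lines by the same test for 18 of the 24 named list genes, which were named for large responses, and for 37.6% of all genes. The value for MiaPaCa-2 was above that for PANC-1 for TSPAN18 (1.91), EGFR (1.5), L1CAM (1.47), HAPLN3 (1.43), CLU (1.07), HAS2 (0.85), HMMR (0.82), PIGP (0.72) and CD151 (0.44). It was below that for PANC-1 for TIMP1 (-1.6), THBD (-1.38), NF2 (-1.31), PLAUR (-1.01), TSPAN31 (-0.77), PIGX (-0.77), C1QBP (-0.43), NT5E (-0.4) and TSPAN4 (-0.37). THBD and HAS2 did not pass the filter on low values in MiaPaCa-2, where they entered the joint fit of both lines alone, and TSPAN18 passed it there through 20 µM libraries alone. HAS2 was under 1 FPKM in every MiaPaCa-2 library and could hardly fall there, so its line difference mostly repeats its fall in PANC-1 (-0.82). HAPLN3 had little room to fall either, at 1.04 FPKM in untreated MiaPaCa-2. These 4 genes are counted in the 18, but their calls give no support for a line difference.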

How the results depend on the processing

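Among the tested differences of the 3 members, none past the threshold changed direction under any alternative run. The number of CD44 statin pairs called, 5 of 12, became 3 with 2 groups alone, with a joint fit of both lines and with a plain moderated variance, and ranged from 3 to 5 when single libraries were left out. The pairs lost in these fits were those with lovastatin in MiaPaCa-2 at 20 µM. Leaving out single libraries moved the mean differences from the control in PANC-1. The ranges over all such runs were -0.03 to 0.18 at 2 µM and -0.47 to -0.27 at 20 µM for CD44. For CD55 they were 0.06 to 0.28 at 2 µM and 0.72 to 0.94 at 20 µM. Leaving out control 2 gave the CD44 values of 0.18 and -0.27, and leaving out control 3 gave the CD55 values of 0.06 and 0.72. The other ends of the ranges came from other libraries. The list counts at 2 µM ranged from 5 to 12 lower in MiaPaCa-2 and from 3 to 7 higher in PANC-1. The cause was not tested. The replicate numbers did not pair the libraries: 0 of 52 pairs with the same number in MiaPaCa-2 and 2 of 63 in PANC-1 correlated above 0.1. With a replicate block the number of CD44 pairs called stayed at 5, CD44 for fluvastatin against lovastatin in MiaPaCa-2 at 20 µM was 0.15, and no call of the members given in the report changed. Depth is unknown, and groups of 2 or 3 libraries limit the precision.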
